A study of Homo sapiens with 4 samples.

Results

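Metallothioneins and the zinc response were followed here through 9 genes of the deposited table, namely MT2A, MT1A, MT1E, MT1F, MT1G, MT1M, MT1X, MTF1, and SLC30A1. They were picked by symbol, and all 9 were found among the 20372 genes of the table. Of the 9, 5 had enough counts to be tested. The cells were TPC1, a human thyroid cancer line that carries a CCDC6-RET fusion. The methods give DMEM with 10% serum for blots and colony assays of this line, but no medium for the sequenced cells. All libraries came from cells given the RET inhibitor BLU6864, for 6 h or for 24 h, with 2 libraries per time point, and 0 vehicle libraries were analysed here, so an effect of the inhibitor and one of longer culture cannot be told apart. The methods give the dose as 100 nM, and the sample labels as 100 µM. The labels mark the 24 h libraries, but not the 6 h libraries, as a re-analysis. Any difference that this mark stands for cannot be told apart from time. Neither source says whether the libraries of a time point came from separate cultures. The P values thus measure the spread between these libraries, drawn in part from other genes, and this spread may be technical. The samples are bulk RNA, in which fewer cells of a kind and less RNA per cell cannot be told apart.

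Metallothioneins are short, cysteine-rich proteins that bind zinc, copper, and cadmium in the cytosol, and their genes lie side by side in a cluster on the long arm of chromosome 16. MTF1 is the transcription factor that senses free zinc and binds metal response elements upstream of the metallothionein genes and of SLC30A1. SLC30A1 exports zinc across the plasma membrane, so metallothioneins and SLC30A1 are the classical buffers against an excess of zinc. Metallothionein genes also respond to glucocorticoids and to oxidative stress.

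RefSeq promoters (build GRCh38.p14) were matched by symbol for 4 of the 9 genes, namely MT2A, MT1X, MTF1, and SLC30A1. The 250 bases before the start are printed for the 3 of these that hold a metal response element core, because they place the elements beside genes that differed in their change over time. Capitals mark the core TGCACNC or TGCGCNC on either strand. In the order printed, the windows are chr16:56608334-56608583 (forward strand), chr16:56682220-56682469 (forward strand), and chr1:211579162-211579411 (reverse strand).
MT2A: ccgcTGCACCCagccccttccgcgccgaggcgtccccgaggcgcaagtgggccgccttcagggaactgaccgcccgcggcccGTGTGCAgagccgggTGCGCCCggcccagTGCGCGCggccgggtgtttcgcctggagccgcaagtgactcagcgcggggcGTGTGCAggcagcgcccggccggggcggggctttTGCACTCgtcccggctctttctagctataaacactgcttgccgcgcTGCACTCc
MT1X: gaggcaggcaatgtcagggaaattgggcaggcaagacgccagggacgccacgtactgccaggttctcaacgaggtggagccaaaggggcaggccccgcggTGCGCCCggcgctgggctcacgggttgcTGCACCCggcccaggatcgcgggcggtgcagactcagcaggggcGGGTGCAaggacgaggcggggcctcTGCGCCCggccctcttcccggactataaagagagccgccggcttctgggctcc
SLC30A1: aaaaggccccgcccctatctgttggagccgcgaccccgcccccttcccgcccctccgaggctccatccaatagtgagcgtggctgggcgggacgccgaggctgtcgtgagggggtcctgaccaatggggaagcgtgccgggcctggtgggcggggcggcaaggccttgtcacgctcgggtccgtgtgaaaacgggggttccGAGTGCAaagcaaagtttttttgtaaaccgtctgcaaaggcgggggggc

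The MT2A window held 7 cores, and none overlapped another. The MT1X window held 4, at 150, 122, 78, and 53 bases before the start. The SLC30A1 window held 1, at 49 bases before the start, and the MTF1 window 0. Of 35116 RefSeq promoters cut to the same length, 24.8% held at least 1 core, 0.370% at least 4, and 0.0313% at least 7. A match of these letters is a description of the window, not a measured binding site.

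Total counts lay between 23917056 and 27457040 per library. The counts were scaled by the TMM method and compared with edgeR's quasi-likelihood test over 12876 genes. A gene was called changed at a Benjamini-Hochberg adjusted P under 0.05. Normalized counts are raw counts brought to the mean scaled size of the 4 libraries, and changes are given as log2 of 24 h over 6 h. Of the 8 thyroid markers, PAX8, FOXE1, TG, and HHEX had at least 10 counts in every library, while NKX2-1 and TSHR were at 0 in all 4. Of the 7 fibroblast markers, COL1A2 and COL3A1 were at 0, and the summed level was between 23.4 and 24.1 CPM at 6 h and between 9.79 and 11.2 at 24 h, where CPM are counts scaled to a TMM-adjusted library of one megaread. Of the 10 white blood cell markers, CD14 alone had at least 10 counts in every library, and the summed level was between 3.78 and 4.13 CPM at 6 h and between 4.19 and 4.28 at 24 h. Within these sums CD14 (log2 change 0.95) and the fibroblast gene LUM (0.75) were called higher, and CSF1R (-2.15), COL1A1 (-1.57), and PDGFRB (-1.48) lower. Of the 6 epithelial markers, KRT7 and KRT18 were called higher and KRT19 lower, while EPCAM and CDH1 had too few counts to be tested. The part of other cell types in the results was not tested.

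SLC30A1, MT1X, MT1E, and MTF1 were higher at 24 h than at 6 h of BLU6864, and MT2A, by far the most abundant metallothionein, was not called. The zinc exporter SLC30A1 rose 2.09-fold and the minor metallothioneins MT1X and MT1E rose 1.86-fold and 3.42-fold, whereas MTF1 rose 1.23-fold. The called members were 4 of the 5 tested, and in all tested genes 33.0% were called higher at 24 h. None (0) of the 5 was called lower by edgeR, against 32.6% of all tested genes. No member was lower at an unadjusted P under 0.05 (0 genes) or called lower with DESeq2 (0 genes). DESeq2 called 3608 of all 12876 tested genes lower. With the cutoffs of the study turned upward (log2 change above 0.5, unadjusted P below 0.01), 3 members passed, namely SLC30A1, MT1X, and MT1E, against 17.4% of all tested genes. The downward cutoffs were passed by 0 members and by 17.7% of all tested genes. The median log2 fold change was 0.90 over the 5 members and 0.0029 over all tested genes. Because roughly as many genes of the whole table fell as rose, and the members were listed with results of these libraries known, these counts are a description and carry no test of their own.

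**Figure D1:**
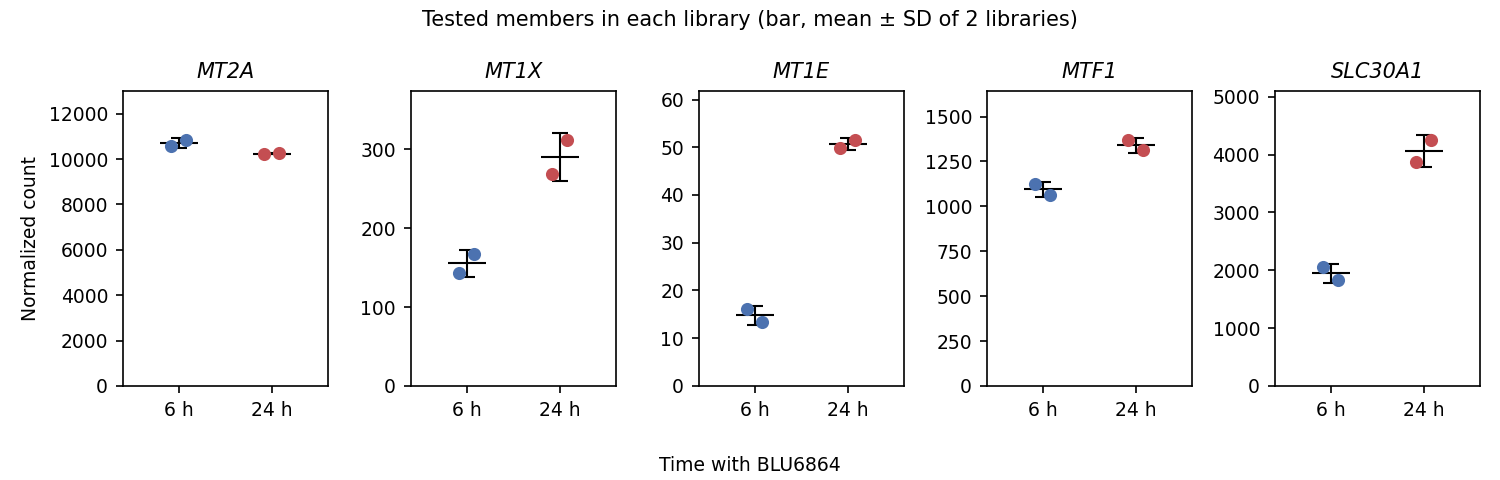
Normalized count (vertical axis, from 0, one scale per gene) of the 5 tested members at 6 h (blue) and 24 h (red) of BLU6864. Points are libraries and bars are the mean ± SD of 2 libraries; MT1X, MT1E, MTF1, and SLC30A1 have both 24 h libraries above both 6 h libraries, while the 24 h libraries of MT2A lie slightly below.

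MT2A (ENSG00000125148), on chromosome 16 of hg19 from 56642111 to 56643409, encodes the metallothionein 2 isoform, the most widely expressed in human cells. Its normalized counts were 10555 and 10850 at 6 h, then 10229 and 10247 at 24 h. The groups did not overlap, but the gap was small beside the level. MT2A thus changed by -0.064 on the log2 scale (standard error 0.0738, 95% interval -0.22 to 0.088; edgeR adjusted P = 0.457). On the linear scale the interval runs from 0.861-fold to 1.06-fold, so a rise of the size seen in MT1X or SLC30A1 lies outside it. Per length, MT2A was among the most abundant genes of the cell. It had 1020 ± 19.8 RPKM, that is CPM per kilobase of transcript (SD, n = 2), at 6 h, which ranked it 44 of 12716 genes, and 976 ± 1.22 at 24 h, which ranked it 55.

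MT1X (ENSG00000187193), at the far end of the cluster from 56716336 to 56718108, is a metallothionein 1 isoform. It had 144 and 168 normalized counts at 6 h and 269 and 312 at 24 h. Both 24 h libraries were well above both 6 h libraries. MT1X rose by 0.90 on the log2 scale (standard error 0.129), with an edgeR adjusted P of 9.74e-07. Per length it stood at 14.7 ± 1.63 RPKM (SD, n = 2) at 6 h and 27.5 ± 2.90 at 24 h, far below MT2A at both times.

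MT1E (ENSG00000169715), from 56659387 to 56661024, is a further metallothionein 1 isoform, and follows MT2A among the 11 metallothionein genes of the cluster in the table. It was scarce, with 16.2 and 13.4 normalized counts at 6 h and 49.8 and 51.6 at 24 h, from raw counts of 15, 14, 50, and 53. The groups lay far apart, but the small counts leave its change imprecise. The rise on the log2 scale was 1.77 (standard error 0.294, 95% interval 1.17 to 2.38), with an edgeR adjusted P of 7.93e-06. This interval overlaps that of SLC30A1 and lies just above that of MT1X (0.63 to 1.16), and the differences between these genes' changes were not tested.

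The other metallothionein members were at or near 0. MT1G and MT1M had 0 counts in all 4 libraries, which allows up to 3 counts, or between 0.109 and 0.125 CPM depending on the library. MT1A had 1 count, in a 6 h library. MT1F had 1 and 6 counts at 24 h and 0 and 1 at 6 h, too few to test, so no fold is given. Outside the members, MT1B, MT1H, MT3, MT4, and MT1HL1 had 0 counts in all libraries. These limits cover counting error only.

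Of the 11 metallothionein genes of the cluster in the table, which span 119 kb of hg19, only MT2A, MT1E, and MT1X had at least 10 counts in every library. MT1E starts 17.3 kb after the start of MT2A and MT1X 74.2 kb after it, with 6 genes at or near 0 between MT1E and MT1X. Counts were thus found at both ends of this stretch and hardly any within it. The promoter of MT1H, which had 0 counts in all libraries, held 8 metal response element cores in the same window, 1 more than MT2A. Those of MT1B and MT4, also at 0 counts, held 3 each, fewer than MT1X. A relation between cores and level was not tested.

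**Figure D2:**
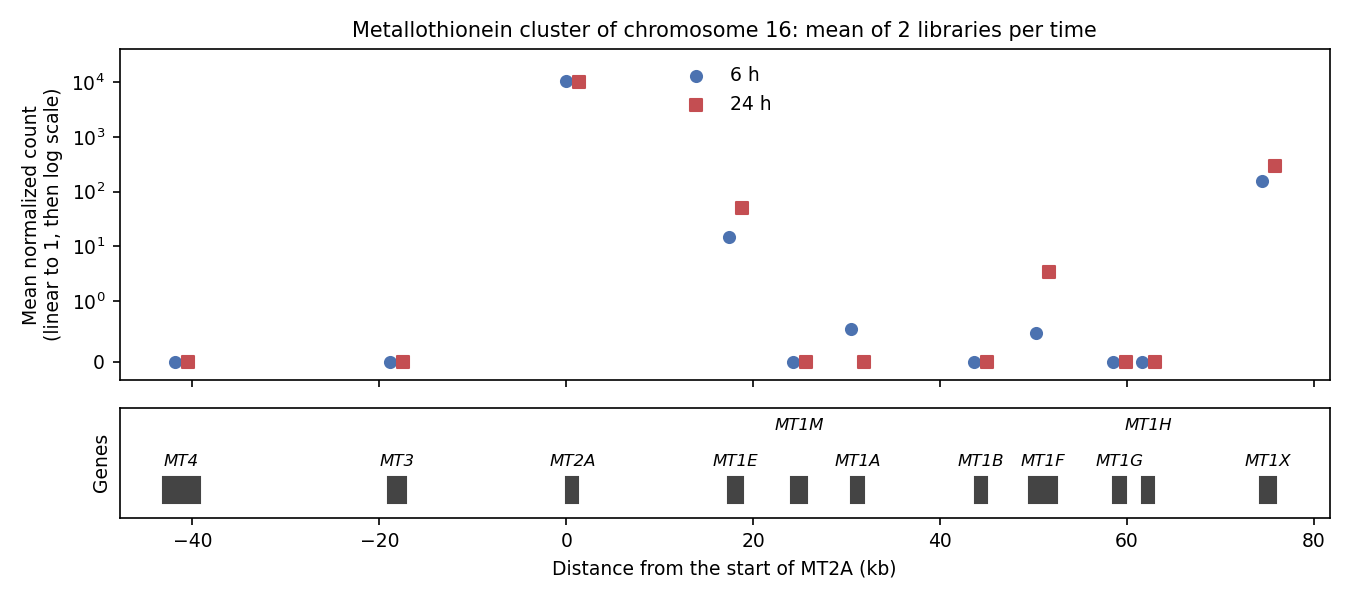
Mean normalized count of 2 libraries (vertical axis, linear to 1 and then log scale) of the 11 metallothionein genes of the chromosome 16 cluster at 6 h (blue circles) and 24 h (red squares), above a map drawn to scale. The horizontal axis is the distance from the start of MT2A in kb; 6 genes sit at 0 at both times, MT1E and MT1X are higher at 24 h, and the points of MT1A and MT1F rest on at most 6 counts in any library, too few to test.

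Because metallothionein genes are near copies of each other, the windows they share were counted in GENCODE v44 transcripts. Of the 50-base windows of the MT1X transcript, 51.0% also occur in a transcript of another gene, mostly of a noncoding gene that overlaps it on the same strand, and 22.0% of its 100-base windows do. The shared part was smaller for MT2A (11.1% of 50-base windows) and MT1E (10.3%), and 0% of their 100-base windows were shared. For MT1G, listed at 0, 19.9% of 50-base windows were shared and 0% of 100-base windows. The values for SLC30A1 and MTF1 were 0% and 0.900%. The labels give single-end reads of 50 bases and the methods paired-end reads of 100 cycles. How reads with more than one match were counted is not given in the sources used here, so the split of reads between metallothioneins, and between MT1X and the overlapping noncoding gene, is uncertain.

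A sum over the 7 metallothionein members is not altered by reads swapped among them, though reads shared with other genes can alter it. It was 410 and 422 CPM at 6 h and 403 and 406 at 24 h (416 ± 8.53 and 404 ± 1.84; SD, n = 2). MT2A made up 98.5% and 98.3% of the sum at 6 h and 97.0% and 96.5% at 24 h. MT2A thus stayed the bulk of the sum, with a slightly smaller share in both 24 h libraries. For every 100 counts of MT2A, the 6 h libraries held 1.36 and 1.55 counts of MT1X and the 24 h libraries 2.63 and 3.05. For MT1E the values were 0.153 and 0.124 at 6 h and 0.487 and 0.503 at 24 h. Both ratios were higher in each 24 h library than in each 6 h library. An exact two-sided permutation test gave P = 0.333 for each, the smallest P that 2 libraries against 2 allow. The metallothionein sum gave the same P, so this test cannot decide whether the ratios changed. From the fit over all genes, the 95% interval of the log2 change of MT2A (-0.22 to 0.088) did not overlap that of MT1X (0.63 to 1.16).

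**Figure D3:**
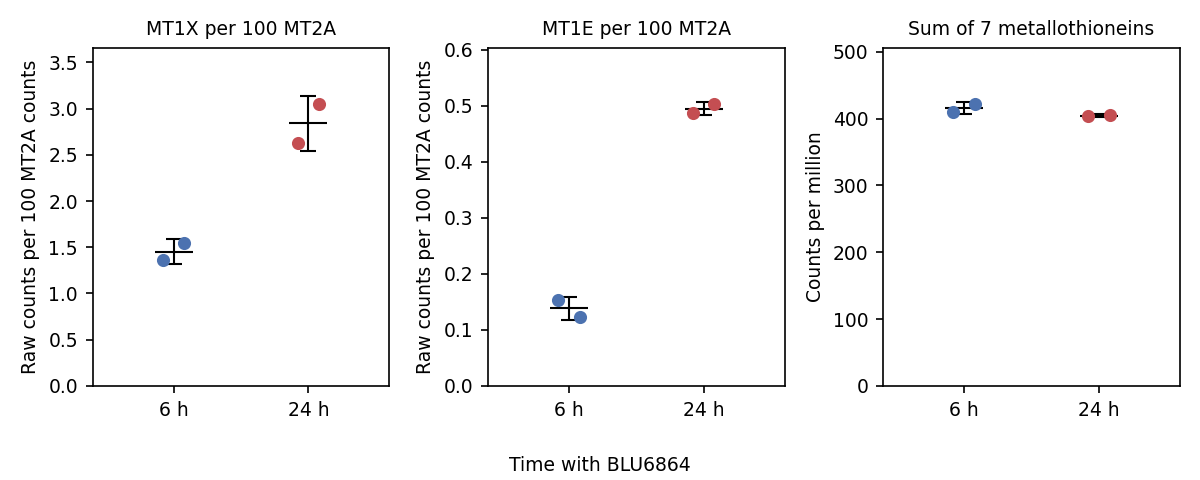
Left and middle, raw counts of MT1X and MT1E per 100 raw counts of MT2A in each library; right, summed CPM of the 7 metallothionein members. Points are libraries at 6 h (blue) and 24 h (red), bars the mean ± SD of 2 libraries, and all axes start at 0; both ratios are higher in each 24 h library, while the sum stays between 403 and 422 CPM.

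MTF1 (ENSG00000188786), on chromosome 1 from 38275239 to 38325292, encodes the zinc-sensing transcription factor itself. It had 1125 and 1065 normalized counts at 6 h and 1371 and 1312 at 24 h. The groups did not overlap, and the change was the smallest of the called members. MTF1 rose by 0.29 on the log2 scale (standard error 0.0740), with an edgeR adjusted P of 0.00113. Its change is smaller than the log2 cutoff of 0.5 used by the study. Zinc activates MTF1 as a protein, which these counts do not measure.

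SLC30A1 (ENSG00000170385), on chromosome 1 from 211744910 to 211752084, is the zinc exporter of the plasma membrane. It had 2062 and 1833 normalized counts at 6 h and 3869 and 4256 at 24 h. Each 24 h library was far above each 6 h library. On the log2 scale SLC30A1 rose by 1.06 (standard error 0.0767, 95% interval 0.90 to 1.22; edgeR adjusted P = 2.71e-12). The counts of MTF1 per 100 counts of SLC30A1 were 54.6 and 58.1 at 6 h and 35.4 and 30.8 at 24 h. Per length at 24 h, SLC30A1 stood at 26.3 ± 1.77 RPKM (SD, n = 2), which did not differ from MT1X beyond the spread, and MTF1 at 6.46 ± 0.201. MT1E was lower still, with 2.60 ± 0.0638, so the order of levels at 24 h was MT2A, then MT1X and SLC30A1, then MTF1, then MT1E. The place of MT1X in this order carries the uncertain split of its reads given above. At 6 h MT1X stood at 14.7 ± 1.63 RPKM and SLC30A1 at 12.6 ± 1.05 (SD, n = 2). Both MT1X libraries (13.6 and 15.9) were above both SLC30A1 libraries (13.4 and 11.9), a difference that was not tested. MTF1 at 5.27 ± 0.204 and MT1E at 0.759 ± 0.100 were lower than both genes.

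Both 24 h libraries lay above both 6 h libraries in 4 of the 5 tested members, against 41.0% of all tested genes. In MT2A both lay below, as in 40.8% of all tested genes. The 3 genes whose centred log2 level over the 4 libraries was most like that of MT2A were SLC25A46, DIP2A, and MRPL9, with root mean square differences between 0.0032 and 0.0056 among 10746 genes compared. With 4 libraries, this likeness is a description.

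The SLC30 family moves zinc out of the cytosol, across the plasma membrane or into organelles, and SLC30A1 was the family member that rose. Of the other 9 SLC30 genes, 6 were tested, and 3 were called lower, 0 higher, and 3 not called, beside 32.6% of all tested genes called lower and 33.0% higher. None (0) was higher at an unadjusted P under 0.05 in edgeR or called higher with DESeq2. SLC30A7, which loads zinc into the Golgi, went from 1357 ± 64.2 to 973 ± 17.6 normalized counts (SD, n = 2) and so fell by 0.48 on the log2 scale (edgeR adjusted P = 3.50e-06). Its Golgi relative SLC30A6 had a log2 change of -0.39 and the mitochondrial SLC30A9 one of -0.23, whose call was lost without 24 h library 2 (edgeR adjusted P = 0.0861). SLC30A4, not called with all libraries, was called higher without 24 h library 1 (log2 change 0.40) and without 6 h library 1 (0.39), which takes the count of higher genes from 0 to 1. All 3 called genes were under 0.5 in size, and they were named after their values were seen. SLC30A3 had the largest fitted value of the list, -0.75, from 13 to 25 raw counts, and was not called (edgeR adjusted P = 0.0796). The median over the list was -0.31.

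The SLC39 family brings zinc into the cytosol, and its counts of calls were near those of the whole table. Of 14 genes, 11 were tested, with 4 called higher, 3 lower, and 4 not called, and a median log2 change of 0.074, beside 33.0% of all tested genes called higher and 32.6% lower. SLC39A14, which carries zinc, manganese, and iron across the plasma membrane, showed the largest change. It had 18022 and 17224 normalized counts at 6 h and 5388 and 5376 at 24 h. Both 24 h libraries were far below both 6 h libraries. SLC39A14 fell by 1.71 on the log2 scale (standard error 0.0769), with an edgeR adjusted P of 1.10e-16. SLC39A8, which carries the same metals, went the other way, from 1106 ± 0.521 normalized counts (SD, n = 2) to 2212 ± 48.1, a rise of 100.0% (95% interval of the fold 1.81 to 2.21), with an edgeR adjusted P of 1.86e-12. SLC39A13, an intracellular member, rose from 1460 ± 48.6 to 2156 ± 48.4, or by 0.56 on the log2 scale. Smaller rises were called for SLC39A6 (0.33) and SLC39A3 (0.25), and smaller falls for SLC39A10 (-0.33) and SLC39A9 (-0.34). The SLC39A3 call was lost without 24 h library 2 (edgeR adjusted P = 0.103), without 6 h library 1 (0.265), with DESeq2 (0.104), and with library size alone (0.0618). SLC39A1, the most abundant of the family per length at 24 h, was not called (log2 change -0.15, edgeR adjusted P = 0.0799), but was called lower with the replicate number as a block (edgeR adjusted P = 0.0457) and with library size alone (0.0268). Per length, SLC39A14 fell from 144 ± 4.63 to 44.1 ± 0.0718 RPKM (SD, n = 2), while SLC39A8 rose from 13.4 ± 0.0063 to 26.8 ± 0.584.

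**Figure D4:**
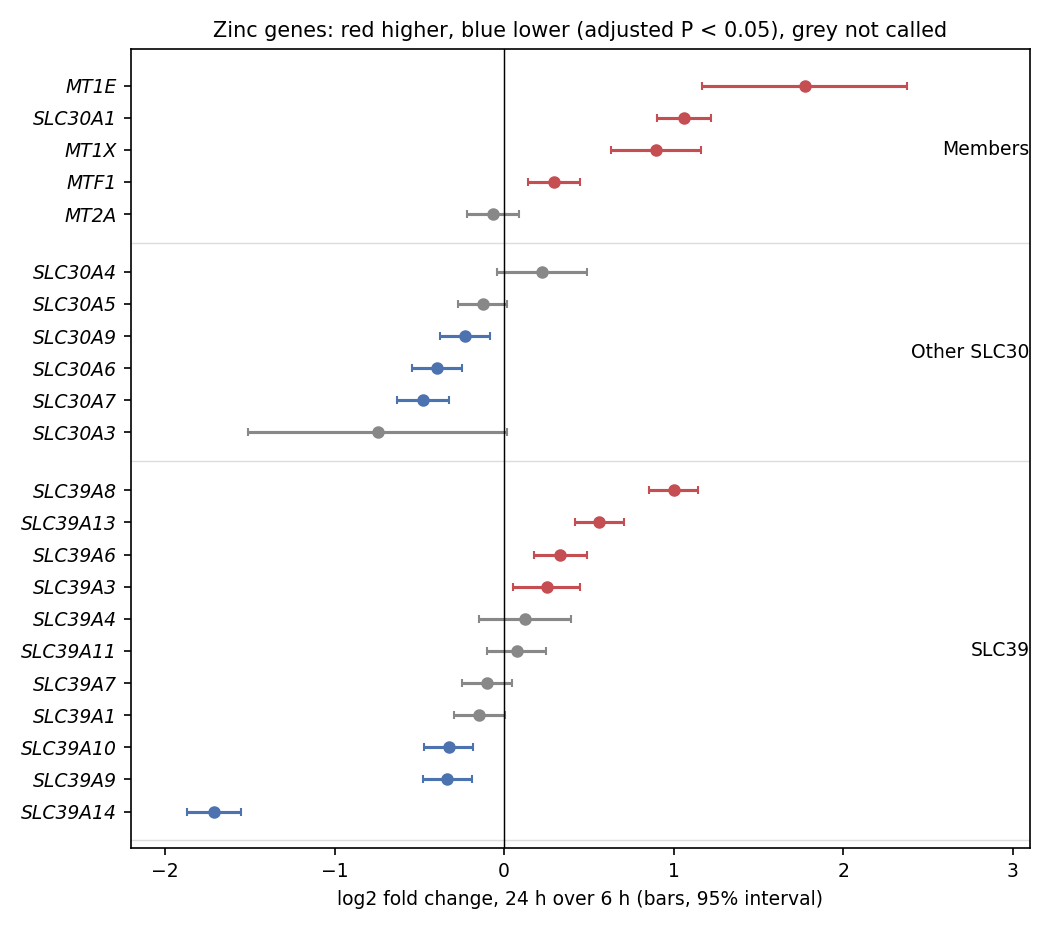
log2 fold change, 24 h over 6 h of BLU6864, with its 95% interval (horizontal axis), for the tested members, the other SLC30 genes, and the SLC39 genes, 2 libraries per time point. Red is called higher and blue called lower at an edgeR adjusted P under 0.05, and grey is not called; SLC39A14 at -1.71 and MT1E at 1.77 mark the ends.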

How the data were processed

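RNA from TPC1 cells was sequenced in 2 libraries at 6 h and 2 at 24 h of BLU6864. The authors aligned reads with STAR (2.3 in the submitters' processing notes, another version in the methods) to hg19 and deposited raw counts per gene; the counting program and strand setting are not given in the sources used here. The authors also deposited a normalized signal, the count divided by a DESeq2 size factor, and its mean over libraries, together with their own fold changes and P values. None of these was used.

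edgeR 4.0.16 (R 4.3.3) was applied to the raw counts after filterByExpr and TMM normalization, with time as the only term, and P was adjusted over all 12876 genes tested. The standard error is the size of the log2 change over the square root of F. With 2 libraries per time point, edgeR draws the variance of each gene partly from the other genes, and small P values rest on this pooling. The fit was tested on simulated data. Lengths are those of the canonical GENCODE v44 transcript. Gene positions are those of the deposited table (hg19), and promoter positions those of RefSeq (GRCh38.p14). Libraries of the same time point were further apart than sampling noise (chi-square per degree of freedom 7.65 at 24 h and 10.0 at 6 h).

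The members and all lists (SLC30, SLC39, other metallothioneins, copper, iron, stress, glucocorticoid, and cell type marker genes) were chosen with earlier results of these data known. Named were all members and, in each list, up to 3 called genes with the largest log2 fold change over 0.5 in size, or else the largest tested; all others were named after their values were seen. Alternatives were DESeq2 1.42.0, upper quartile scaling, library size alone, a minimum of 10 counts in each library, no filter, the cutoffs of the study, the replicate number as a block, and leaving out each library in turn. Figures were made in matplotlib 3.10.9 (Python 3.11.15).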

Additional observations from a re-analysis of the deposited data

How the results depend on the processing

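All alternatives were run. SLC30A1, MT1X, MT1E, and MTF1 were called higher and MT2A was not called under each of them, except that MTF1 did not pass the log2 cutoff of the study. The log2 fold change without 1 library ranged from 0.98 to 1.15 for SLC30A1, 0.79 to 1.02 for MT1X, 1.64 to 1.91 for MT1E, 0.25 to 0.33 for MTF1, and -0.084 to -0.044 for MT2A. The lone library of a time point is assumed in these fits to vary like the others. With library size alone, MT2A was at -0.11 (edgeR adjusted P = 0.208). Without the filter on low counts, the edgeR adjusted P was 0.169 for MT1F, with MT1A not called either. The log2 ratio of the metallothionein sum, -0.039, was -0.082 with library size alone and -0.0097 with upper quartile scaling.

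Libraries 1 and 2 exist at each time point without a stated meaning of the number, and pairs with the same number deviated together with a correlation of 0.0844. Under the replicate block, 4 members were called higher, and thyroid markers called lower were 2 in place of 1 (HHEX was added), as with library size alone. Of 12876 tested genes, the block called 4524 higher and 4448 lower, and library size alone 3874 higher and 4542 lower. Beside the changes given with each gene above, the replicate block also added COMMD1 to the lower copper genes, as did library size alone and leaving out 6 h library 1, and library size alone added SLC30A5 and IREB2 to the lower genes.

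The cutoffs of the study left 0 lower SLC30 genes, 2 higher and 1 lower SLC39 genes, and 2 lower copper genes. They also left 1 lower iron gene, 2 lower stress genes, 0 higher glucocorticoid targets, and 1 higher epithelial marker. Of all tested genes, 17.4% passed these cutoffs upward and 17.7% downward. Higher glucocorticoid targets were 1 with DESeq2 and 1 with at least 10 counts per library. DESeq2 called 0 fibroblast markers higher. Among all 12876 tested genes it called 3584 higher and 3608 lower. The minimum of 10 counts left 0 white blood cell markers lower, since CSF1R was then untested. Without a filter 2 epithelial markers were lower, since EPCAM was then tested. Over all genes tested, that minimum gave 4062 higher and 3947 lower of 12221, and no filter 4278 and 4196 of 16333. Without 1 library, counts ranged from 0 to 1 for higher SLC30 genes, from 1 to 2 for higher glucocorticoid targets, and from 1 to 2 for lower thyroid markers (2 without 24 h library 1). The log2 ratio of the metallothionein sum ranged from -0.060 to -0.018. Of the other alternatives, 299 values kept their direction and side of the threshold or stayed within 1.5 times the count. This number includes the counts of the other metallothioneins, which had no reads and so could not move. A count kept by this rule can still have lost or gained a call. MT1E, with 14 to 53 counts, is the tested member that depth limits most.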

Other observations

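Other metal genes were counted in the same way, and 33.0% of all tested genes were called higher and 32.6% lower, against which each count is to be read. Of 9 copper genes, all tested, 5 were called lower and 0 higher by edgeR, with 0 higher at an unadjusted P under 0.05 and 0 with DESeq2. COX17, which carries copper to cytochrome oxidase, fell from 601 ± 84.2 to 318 ± 15.7 normalized counts (SD, n = 2), or by 0.92 on the log2 scale (edgeR adjusted P = 1.61e-08). SLC31A2, a low-affinity copper transporter, had 34 and 64 raw counts at 6 h and 17 and 31 at 24 h, with a log2 change of -1.07, and its call was lost without 24 h library 1 (edgeR adjusted P = 0.0719) or 6 h library 2 (0.166). The other called falls were those of SLC31A1 (-0.46), ATOX1 (-0.31), and SOD1 (-0.31). Of 9 iron genes, 8 were tested, 4 called higher and 2 lower, with a median log2 change of 0.19. Both ferritin chains, which store iron, rose, FTL with a log2 fold change of 1.17 and FTH1 with 1.05, and so did the iron-responsive aconitase ACO1 with 0.98 and the iron exporter SLC40A1 with 0.49. The called falls were those of TFRC, the transferrin receptor, at -0.41, and of STEAP3, a ferrireductase, at -0.60. Ferritin genes have processed copies in the genome, and the sequence shared with them was not measured here.

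Genes of the metal and oxidant stress list, of which all 9 were tested, were called higher in 1 case and lower in 4, beside 33.0% and 32.6% of all tested genes. NQO1, a quinone reductase, rose with a log2 fold change of 0.62, while GCLM, a subunit of the enzyme that starts glutathione synthesis, fell by 0.53 on the log2 scale. The heat shock gene HSPA1A had 22 and 26 raw counts at 6 h and 11 and 12 at 24 h, and is a near copy of HSPA1B, so its log2 change of -1.10 is uncertain. Its call was lost with DESeq2 (adjusted P = 0.105), without 24 h library 1 (0.0528), and without 6 h library 2 (0.0558). Called lower as well were HMOX1 (-0.39) and HSPA1B (-0.45). Of 9 glucocorticoid target genes, 8 were tested, 5 called lower and 2 higher, beside 32.6% and 33.0% of all tested genes, with a median log2 change of -0.75. FKBP5, a chaperone partner of the glucocorticoid receptor, fell from 388 ± 1.47 to 154 ± 2.31 normalized counts (SD, n = 2), a log2 fold change of -1.33, and DUSP1, a phosphatase, had one of -1.12. Called lower too were SGK1 (-0.93), KLF9 (-0.79), and PER1 (-0.70), and TSC22D3 was called higher (0.39). CRISPLD2, with 6 to 24 raw counts, had a log2 change of 1.18, and its call was lost with DESeq2 (adjusted P = 0.143), without 24 h library 1 (0.194), and without 6 h library 2 (0.238).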
